A study of Rattus norvegicus with 172 samples.

Results

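The genes described here are those whose transcript stayed low in the spinal cord on both sides of an untreated transection gap from day 10 to day 90. A gene entered the set when its level in normal cord was at least 7 on the log2 scale of the array and when the untreated animals averaged at least 0.8 log2 (1.74-fold) below normal on each of days 10, 20, 30, 60 and 90, in the segment rostral to the gap and in the segment caudal to it. Each gene was read from the probe set with its highest mean over the cord arrays. Of 14218 genes with a probe set, 9717 reached the level of 7 in normal cord, and 82 of these (0.844%) met the rule in all 10 groups. The rule was met rostrally by 319 genes (3.28%) and caudally by 94 (0.967%). Since measured values chose the genes, their loss in the untreated animals is given as a description, with no test.

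The series measured RNA from adult female Wistar rats, 2 months after birth, whose cord was cut at T7-8 with removal of 5 mm of tissue. In the NT-3-chitosan tube arm the gap received a chitosan tube seeded with carriers of NT-3, the neurotrophin-3 protein; in the tube alone arm it received an empty chitosan tube; in the lesion control arm it received nothing. Segments of 5 mm, with dura and meninges, were taken rostral to the lesion, caudal to it and from the lesioned area, and each array held tissue pooled from 4 animals. The files held 3 normal cord arrays, 164 arrays of injured cord in 55 groups and 5 arrays that repeat 1 universal reference RNA. Every injured group had 3 arrays except the rostral tube alone group of day 10, which had 2. Rostral and caudal segments were sampled on days 1, 3, 10, 20, 30, 60 and 90; lesion segments began at day 3, and for the tube alone arm only day 3 was analysed here. Array medians lay between 7.1 and 7.25 on the log2 scale; precision is limited by how many arrays a group had. The median SD within a group was 0.16 log2 for the 82 genes and 0.12 for all genes. Neuronal and myelin transcripts were high in normal cord, with mean log2 levels of 10.40 for Rbfox3, 13.83 for Snap25 and 14.79 for Mbp. Replicate numbers denote separate pools, so p-values measure the spread between pools.

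Cholesterol in the central nervous system is made locally, because plasma lipoproteins scarcely cross the blood barriers, and myelin holds most of it. The enzymes of the mevalonate and sterol pathway are transcribed under SREBP-2, the product of Srebf2, which is held in the endoplasmic reticulum by INSIG proteins when sterol is plentiful. Spinal inhibitory interneurons release GABA and glycine, both loaded into vesicles by the transporter encoded by Slc32a1, and fast-firing neurons depend on Kv3 potassium channels, Nav1.1 sodium channels and the calcium buffer parvalbumin.

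By what their products do, 23 of the 82 genes belonged to lipid metabolism and 59 did not. The lipid genes comprised 12 enzymes of sterol synthesis, 3 genes of sterol control and 8 genes of fatty acid and other lipid synthesis. Of the rest, 4 serve inhibitory transmission, 9 are channels, calcium-handling proteins or proteins of axonal domains, 12 are synaptic vesicle, scaffold or organiser proteins, 3 serve peptide signalling, 6 are GTPase regulators or kinases, 3 are transcription factors, 3 are ubiquitin ligases, 6 are adhesion, matrix or developmental genes, and 13 have other or uncertain roles. Averaged over the 10 lesion control groups that defined the set, the median gene was 1.27 log2 below normal (difference -1.27), with a range from -2.58 to -0.96. The lipid genes had a median difference of -1.33 and the remaining 59 a median of -1.25, against -0.07 over all 9717 genes. Fewer cells of a type and less RNA per cell cannot be told apart in these segments.

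**Figure D1:**
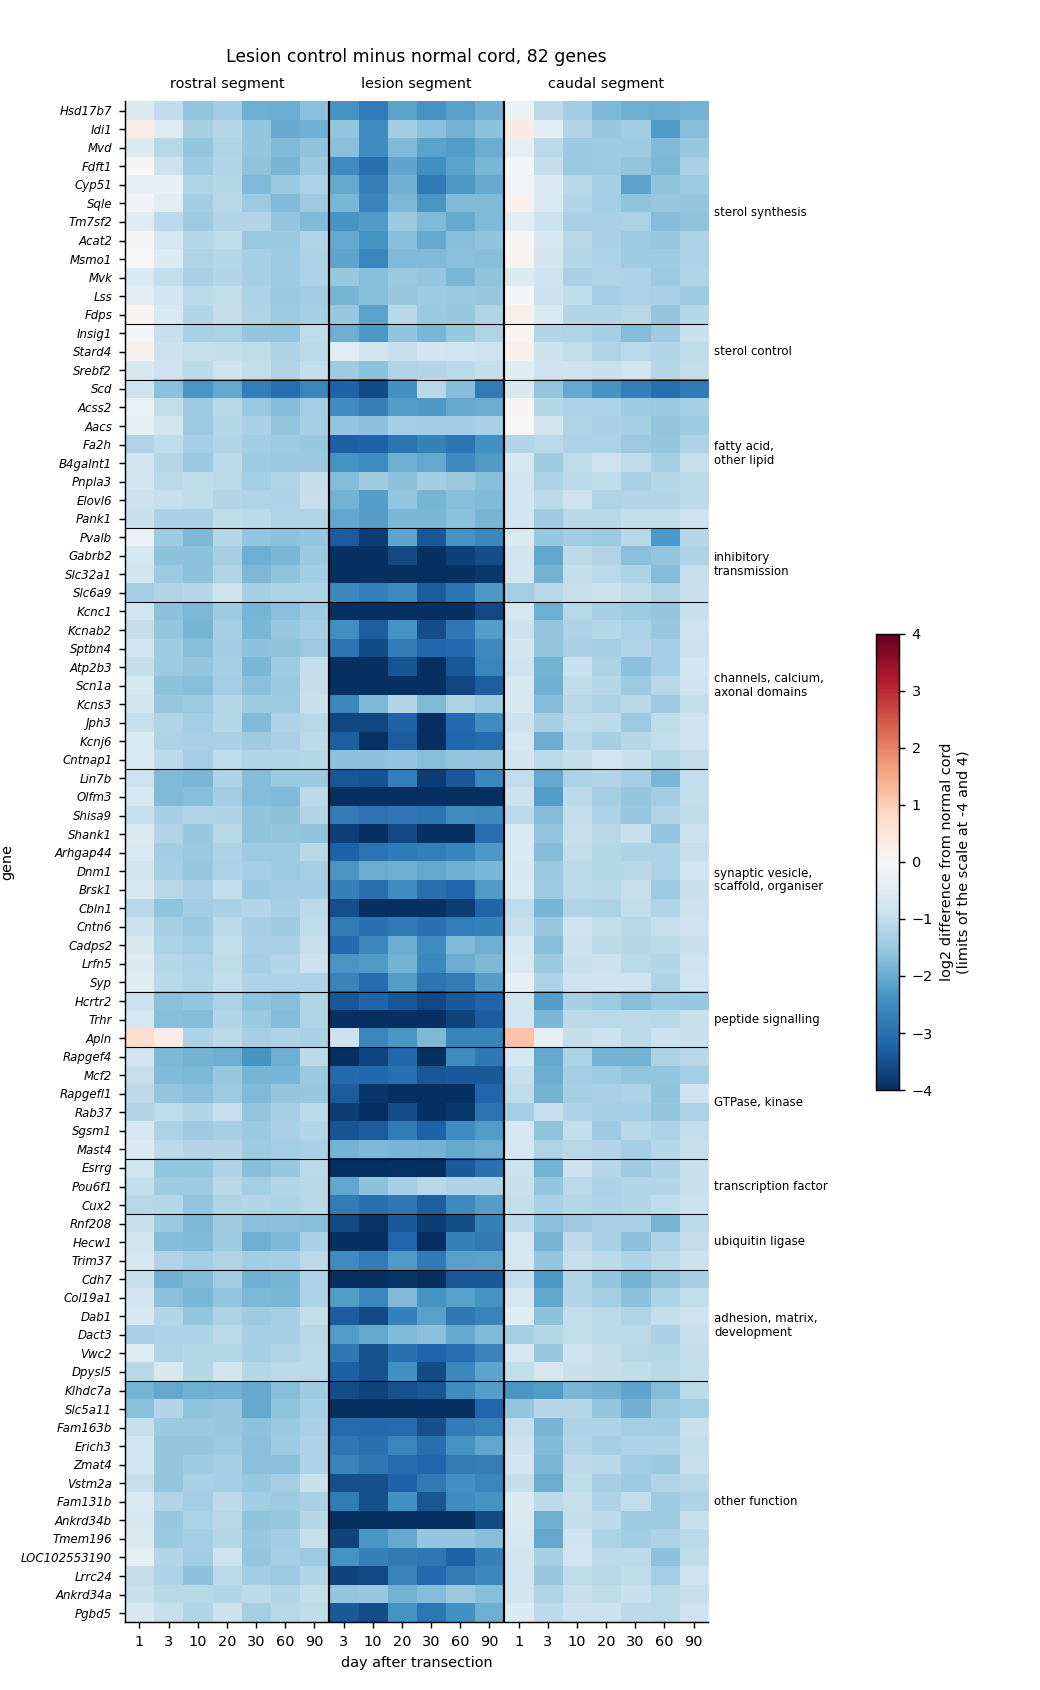
Lesion control mean minus normal cord mean, in log2, for the 82 genes (lines, grouped by role) on each day in the rostral, lesion and caudal segments (columns). The 10 rostral and caudal columns of days 10 to 90 chose the genes, so all lie at least 0.8 below normal; the columns of days 1 and 3 and of the lesion segment were not used in the choice.

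The sterol pathway was represented from its entry to its late steps. Idi1, which isomerises isopentenyl diphosphate, measured 11.79, 11.64 and 11.93 in the 3 normal arrays and ran from 9.71 through a median of 10.15 to 10.73 in 15 rostral lesion control arrays of days 10 to 90, and from 9.18 through 10.27 to 10.70 in the 15 caudal arrays. Hsd17b7, a ketoreductase that acts on sterol intermediates, measured 10.22, 9.69 and 9.99 in normal cord, 7.85 to 8.63 rostrally (median 8.35) and 7.85 to 8.78 caudally (median 8.11). No injured array of these groups reached the lowest normal array for either gene. Their mean differences over the 10 groups were -1.60 for Idi1 and -1.76 for Hsd17b7, that is 3.03-fold and 3.38-fold lower. The mevalonate diphosphate decarboxylase Mvd (-1.53), the squalene synthase Fdft1 (-1.51) and the lanosterol demethylase Cyp51 (-1.45) followed. Mvk, Fdps, Sqle, Lss, Tm7sf2, Msmo1 and Acat2, a thiolase at the entry of the pathway, completed the 12, which had a median of -1.43. Over the list of cholesterol synthesis genes, 12 of 17 measured were in the set and 16 of 17 lay below normal in all 10 groups, with a list median of -1.29; of all 9717 genes, 3446 lay below normal in all 10.

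Upstream sequences are shown for the 4 sterol synthesis enzymes with the lowest means among those found in the promoter table, because the pathway's genes are textbook targets of a shared factor; Fdft1, lower than Cyp51, had no entry. They come from RefSeq (assembly GRCr8) and run from 250 bases before to 50 bases after the annotated start, written 5′ to 3′ in the direction of the gene; capitals mark each CCAAT, or ATTGG where the match is on the opposite strand. Hsd17b7 lies at chr13:84722705-84723004 (minus strand), Idi1 at chr17:66547475-66547774 (minus strand), Mvd at chr19:67414925-67415224 (minus strand) and Cyp51 at chr4:30991443-30991742 (plus strand).
Hsd17b7: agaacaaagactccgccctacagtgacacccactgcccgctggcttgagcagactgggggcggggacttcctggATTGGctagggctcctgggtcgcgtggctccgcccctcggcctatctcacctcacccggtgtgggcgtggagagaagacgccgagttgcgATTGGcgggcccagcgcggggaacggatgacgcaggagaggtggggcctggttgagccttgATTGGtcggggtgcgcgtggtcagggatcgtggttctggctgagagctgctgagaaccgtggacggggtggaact
Idi1: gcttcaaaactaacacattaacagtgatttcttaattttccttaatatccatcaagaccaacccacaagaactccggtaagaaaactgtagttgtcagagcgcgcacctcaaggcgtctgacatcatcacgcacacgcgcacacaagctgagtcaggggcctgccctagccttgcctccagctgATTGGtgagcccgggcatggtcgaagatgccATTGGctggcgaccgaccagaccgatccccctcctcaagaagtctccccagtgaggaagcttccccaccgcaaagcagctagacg
Mvd: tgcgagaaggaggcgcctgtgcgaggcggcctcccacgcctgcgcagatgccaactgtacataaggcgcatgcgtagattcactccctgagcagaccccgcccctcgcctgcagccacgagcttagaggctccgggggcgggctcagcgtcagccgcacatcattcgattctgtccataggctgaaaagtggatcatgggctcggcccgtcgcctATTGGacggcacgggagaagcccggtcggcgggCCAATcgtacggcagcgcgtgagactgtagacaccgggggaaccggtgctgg
Cyp51: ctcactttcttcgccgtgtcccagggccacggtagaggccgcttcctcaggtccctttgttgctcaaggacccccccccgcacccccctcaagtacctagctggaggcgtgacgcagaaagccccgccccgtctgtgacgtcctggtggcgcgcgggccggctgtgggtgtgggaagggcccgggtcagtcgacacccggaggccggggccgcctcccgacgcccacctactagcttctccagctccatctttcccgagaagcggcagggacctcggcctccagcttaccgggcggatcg

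CCAAT, the letters of the box bound by the factor NF-Y, stood 176, 86 and 25 bases before the start of Hsd17b7, 66 and 35 bases before that of Idi1 and 35 and 2 bases before that of Mvd. Cyp51 held none in this window. A promoter was found in the table for 66 of the 82 genes. On either strand, CCAAT occurred in 8 of 10 sterol synthesis promoters, in 14 of 18 lipid promoters (77.8%) and in 12 of 48 of the other genes (25%), against 37.7% of all 27457 promoters of the table and 37.9% of the 8140 belonging to genes with a normal level of at least 7. GGGCGG, the GC box, occurred in 14 of 18 lipid promoters and in 30 of 48 others (62.5%), against 64.4% of those 8140. TCACNCCAC, a 9-base form of the sterol response element, occurred in 0 of 66 promoters and in 1.13% of all. These matches of letters on both strands describe the windows and not factor binding.

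The 3 genes of sterol control had a median of -1.06. Insig1, a sterol sensor of the endoplasmic reticulum and itself a target of SREBP, had a mean difference of -1.33, Stard4, a cytosolic sterol carrier, of -1.06 and Srebf2 of -0.96. Srebf2 measured 10.69, 11.07 and 10.82 in normal cord and 9.60 to 10.13 in the 15 rostral lesion control arrays, with no overlap. Over the list of SREBP regulation and low-density lipoprotein uptake, 3 of 9 measured genes were in the set and the list median was -0.15.

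Scd, a desaturase that makes monounsaturated fatty acids, had the lowest mean of all 82 genes. It measured 10.94, 10.41 and 10.50 in the normal arrays. Rostral lesion control arrays of days 10 to 90 ran from 7.39 through a median of 7.99 to 8.70, and caudal arrays from 7.37 through 7.87 to 8.72. The mean difference was -2.58, a 6.00-fold lower level, and the single groups lay between -3.04 and -2.04. Elovl6, an elongase of saturated and monounsaturated fatty acids, measured 10.36, 10.10 and 10.20 in normal cord against 8.77 to 9.43 rostrally and 8.93 to 9.49 caudally. Fa2h, the hydroxylase that makes the hydroxylated fatty acids of myelin galactolipids, lay outside its normal values (10.86, 10.96 and 10.80) in the same way, at 9.27 to 9.77 and 9.18 to 9.85. Acss2 and Aacs, which activate acetate and acetoacetate, the lipase gene Pnpla3, the coenzyme A gene Pank1 and the ganglioside synthase gene B4galnt1 made up the 8. Over the list of fatty acid, desaturase and sphingolipid genes, 4 of 22 were in the set (list median -0.40). Of 26 oligodendrocyte and myelin genes 0 were in the set, with a list median of -0.53.

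Outside lipid metabolism, the genes of inhibitory transmission were low in both segments. Pvalb, the parvalbumin gene, measured 10.71, 11.20 and 11.32 in normal cord, 8.83 to 10.05 rostrally (median 9.61) and 8.04 to 10.12 caudally (median 9.78), a mean difference of -1.51. Gabrb2, a subunit of GABA-A receptors, measured 9.90, 9.43 and 9.73 in normal cord, then 7.47 to 8.41 and 7.59 to 8.92 in the segments, a mean difference of -1.49. Slc32a1 measured 9.77, 10.24 and 9.99, then 7.62 to 8.91 and 7.71 to 9.39, a mean difference of -1.35. None of these ranges reached the normal arrays. The fourth gene of the group, Slc6a9, encodes a glycine transporter found largely on glia. The vesicular glutamate transporter gene Slc17a6, just outside the set, had a mean difference of -1.05, near the -1.07 of Slc6a9.

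Among channels and axonal proteins, Kcnc1, which encodes the Kv3.1 channel of fast-firing neurons, measured 11.18, 11.76 and 11.52 in normal cord and 9.26 to 10.19 rostrally and 9.54 to 10.82 caudally, a mean difference of -1.45. The group also held Scn1a (the Nav1.1 sodium channel), Kcnab2 and Kcns3 (auxiliary and silent potassium channel subunits), Kcnj6 (an inward rectifier gated by G proteins), the calcium pump gene Atp2b3, the junctophilin gene Jph3, and Sptbn4 and Cntnap1, whose products organise the initial segment, node and paranode of axons. The synaptic group held the vesicle gene Syp, the endocytic GTPase gene Dnm1, Cadps2, the scaffold genes Shank1 and Lin7b, the receptor-associated Shisa9, and the synapse organisers Cbln1 and Lrfn5, with Arhgap44, Brsk1, Olfm3 and Cntn6. Of 24 neuronal genes on the marker list only Syp and Dnm1 met the rule, while 22 of 24 lay below normal in all 10 groups (list median -0.73). Of 55 synaptic transmission genes 2 were in the set (list median -0.48), and of 51 channel genes 3 (list median -0.57).

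Rapgef4, which encodes a Rap exchange factor activated by cyclic AMP, was the lowest of the signalling genes. It measured 9.52, 9.73 and 9.47 in normal cord, 6.89 to 8.59 rostrally (median 7.63) and 7.24 to 8.88 caudally (median 8.04), with a mean difference of -1.67. Mcf2, a guanine nucleotide exchange factor, had a mean difference of -1.59, the cadherin gene Cdh7 of -1.57, and the ubiquitin ligase genes Rnf208, of the RING type, and Hecw1, of the HECT type, of -1.52 and -1.44. The thyrotropin-releasing hormone receptor gene Trhr stood at -1.25, in a peptide group with the orexin receptor gene Hcrtr2 and the apelin gene Apln. Slc5a11, a sodium-coupled inositol transporter, and Klhdc7a, a gene with kelch repeats and no settled role, had means of -1.56 and -1.77. The 3 normal arrays of Klhdc7a were far apart, at 9.52, 10.54 and 9.99.

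The edge of the set was gradual. Just inside, the group nearest to normal lay at -0.80 for Syp, Dpysl5 and Srebf2; just outside, it lay at -0.79 for the glycine receptor gene Glra2, the Rap GTPase-activating gene Rap1gap and the vesicular glutamate transporter gene Slc17a6. With a limit of 0.7 the set would hold 181 genes, and with 0.9 it would hold 43. The number also rested on the 3 normal arrays, being 142 without normal replicate 1 (75 of the 82 among them), 69 without replicate 2 (54 shared) and 102 without replicate 3 (77 shared). Of the 82 genes 30 had further probe sets, 46 in all, and those of Cbln1, Cyp51, Elovl6, Fdft1, Hsd17b7, Idi1 and Pnpla3 included 7 that met the limit in all 10 groups by themselves. The rest did not meet it in all 10. Among those with a normal level over 7, mean differences were -0.84 and -0.22 for Slc6a9, -0.34 for Trim37 and -0.22 for Shank1. They were -0.69 for Lss, -0.74 for Apln, -0.93 for Mvk and -1.17 for Esrrg. Membership of such genes, and the size of their loss, therefore rests on the probe set chosen.

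The lipid genes and the others differed in how early they were low. On day 1 in the rostral lesion control segment, 26 of the 59 non-lipid genes were at least 0.8 below normal against 4 of the 23 lipid genes, with 3.3% of all 9717 genes beyond that limit. On day 1 caudally the numbers were 25 of 59 and 1 of 23, against 3.57%. By day 3 they were 57 of 59 and 15 of 23 rostrally (8.27% of all genes) and 57 of 59 and 16 of 23 caudally (10.9%). The medians of the lipid genes were -0.42 rostrally and -0.10 caudally on day 1, and -0.93 and -0.87 on day 3; those of the others were -0.78 and -0.74, then -1.41 and -1.68. These differences from normal share the normal arrays with the rule and carry no test.

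Day 3 can be set against day 1 without the normal arrays. With limma, rostrally 62 of the 82 genes fell and 2 rose between these days (33.3% of all genes changed, 18.7% up and 14.5% down), and caudally 73 fell and 2 rose (45.3% of all, 24.2% up and 21.1% down). Sterol synthesis enzymes fell in 11 of 12 cases rostrally and in 12 of 12 caudally. For Idi1, rostral lesion control arrays measured 12.23, 11.87 and 12.11 on day 1, overlapping the normal arrays, then 10.99, 11.24 and 11.55 on day 3, and 9.71, 9.77 and 9.86 on day 60. Among these 3 days no array of a later day reached those of an earlier one. The fall was not steady over all days, since the difference from normal was -1.34 on day 10 and -1.13 on day 20.

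The largest rostral falls between days 1 and 3 were those of Pvalb, from 11.26, 10.92 and 10.39 to 9.06, 9.88 and 9.99 (-1.21 ± 0.31, SE), Olfm3 (-1.07), Stard4, from 8.91, 8.69 and 9.25 to 7.86, 8.09 and 7.80 (-1.03 ± 0.11), and Cdh7 (-1.03). The day 1 and day 3 arrays of Pvalb and Stard4 did not overlap. Caudally Apln, which encodes a vasoactive peptide, fell most, from 11.03, 10.93 and 11.68 on day 1 to 9.86, 9.77 and 9.43 on day 3 (-1.53 ± 0.18). Its normal values were 9.96, 10.28 and 9.97, so it was above normal on day 1 before being low from day 10. Hcrtr2 (-1.45), the collagen gene Col19a1 (-1.43) and Olfm3 (-1.37) came next. Slc5a11 ran the other way in both segments, rising by 0.49 rostrally, from 8.89, 9.21 and 8.90 to 9.85, 9.14 and 9.47, where 1 array of day 3 lay within the day 1 range, and by 0.47 caudally. Dpysl5 rose rostrally (0.45) and the Rab GTPase gene Rab37 caudally (0.42).

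**Figure D2:**
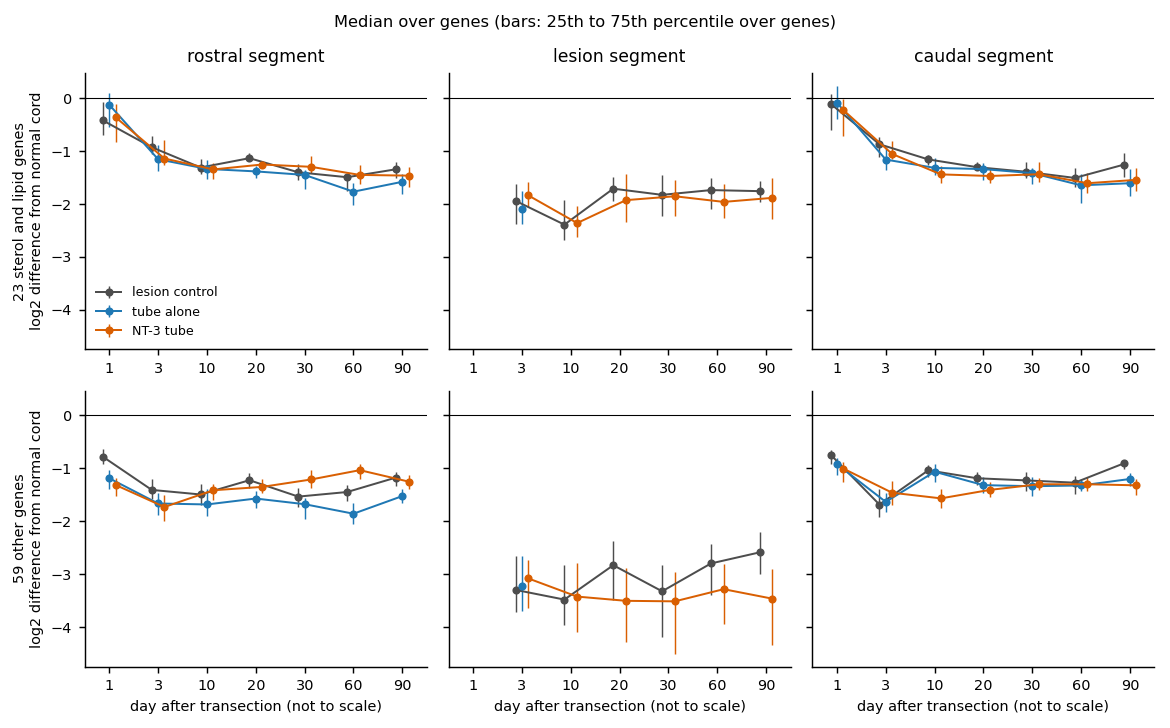
Median difference from normal cord, in log2, of the 23 lipid genes and the other 59 genes by day after operation. Each arm is shown in the rostral, lesion and caudal segments, and bars run from the 25th to the 75th percentile over genes. In the rostral lesion control segment the lipid median goes from -0.42 on day 1 to -1.49 on day 60, and that of the others from -0.78 to -1.53 on day 30.

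The deepest day also differed by class. Rostrally, 17 of 23 lipid genes were lowest on day 60, while 31 of the 59 others were lowest on day 30 and 18 on day 10. Caudally, 14 of 23 lipid genes were lowest on day 60, and of the others 29 on day 60 and 23 on day 30. Scd in rostral lesion control arrays measured 9.79, 9.75 and 9.81 on day 1 and 7.59, 7.39 and 7.75 on day 60. Whether the classes differed in their course was not tested, and the deepest day was not counted over all genes. RT1-CE10, a class I histocompatibility gene, averaged 10.95 rostrally and 11.08 caudally on lesion control day 30. On the other days from day 10 on, its lesion control means there lay between 7.02 and 7.38. What part that difference had in the deepest days was not tested.

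Within the lesioned area of the lesion control arm the same genes were lower still. From day 3 to day 90, 81 or 82 of the 82 were at least 0.8 below normal on each day, where 23.9%, 24.1%, 20%, 22%, 21.5% and 17.4% of all genes were on days 3, 10, 20, 30, 60 and 90. Medians of the lipid genes lay between -2.39 and -1.71, and those of the others between -3.48 and -2.59. Over days 10 to 90 the 24 neuronal markers averaged 2.38 log2 below normal in these segments (difference -2.38) and the 13 skeletal muscle markers 2.98 above.

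**Figure D3:**
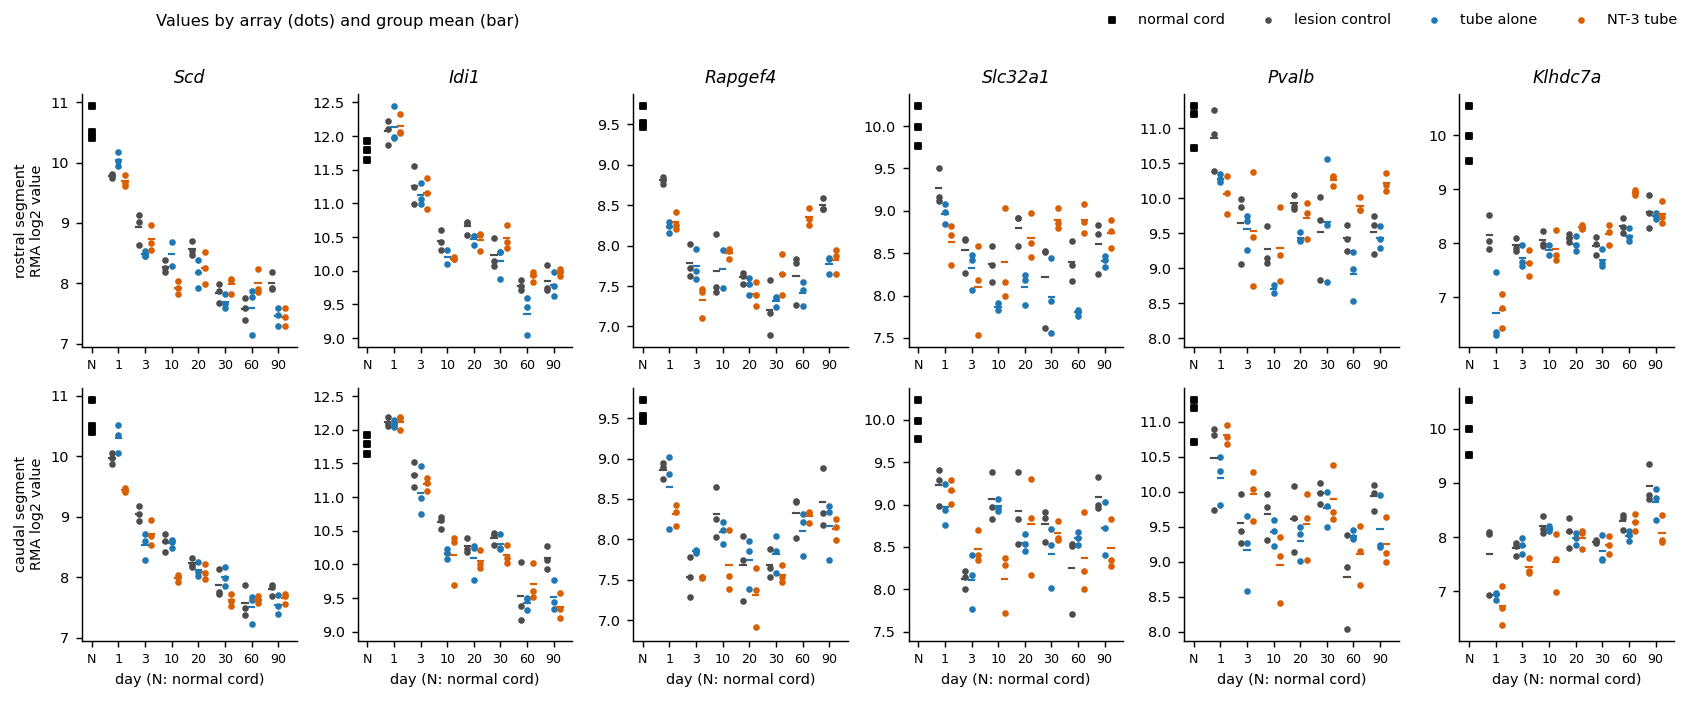
Array values, in log2, of Scd, Idi1, Rapgef4, Slc32a1, Pvalb and Klhdc7a by day in the rostral and caudal segments of the 3 arms, with the normal arrays beside them; each point is 1 pool of 4 animals. Rostral Slc32a1 values of the tube alone arm lie between 7.56 and 8.47 from day 10 on, and those of the NT-3-chitosan tube arm between 8.00 and 9.08.

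The loss was present in all arms. Applied to the tube alone arm, the same rule was met by 252 of 9717 genes (2.59%) and by 77 of the 82; Dact3, Slc6a9, Cntnap1, Syp and Dpysl5 missed it, all in the caudal segment. In the NT-3-chitosan tube arm it was met by 261 genes (2.69%) and by 75 of the 82; Sgsm1, Brsk1, Pou6f1, Syp, Ankrd34a, Dpysl5 and Pgbd5 missed it, all in the rostral segment. These arms were measured against the same normal arrays as the lesion control. Scd ranged from 7.14 to 8.68 in rostral tube alone arrays and from 7.30 to 8.52 in rostral NT-3 arrays of days 10 to 90, close to the lesion control range.

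Against the lesion control arrays that chose the genes, which makes the comparison a description, the arms' means over these days lay on different sides by segment. Rostrally over days 10 to 90 the NT-3 arm had a median difference of 0.08, with 57 of 59 non-lipid genes and 8 of 23 lipid genes above the lesion control, and the tube alone arm had a median of -0.27 with 0 of 82 above; of all 9717 genes, 5372 lay above in the NT-3 arm and 3828 in the tube alone arm. The rostral NT-3 difference changed side between days. Of the 59 non-lipid genes, 35, 5, 59, 59 and 20 lay above on days 10, 20, 30, 60 and 90. Of all 9717 genes, 4250, 3226, 5945, 5682 and 4817 did. Caudally the medians over days 10 to 90 were -0.21 for the NT-3 arm, with 0 of 82 above, and -0.11 for the tube alone arm, with 2 above. Of all genes, 3353 and 3623 lay above.

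The NT-3 and tube alone arms can be compared with each other without the arrays that made the rule. In the rostral segment over days 10 to 90, 71 of the 82 genes were higher in the NT-3 arm and 0 lower (limma, adjusted p under 0.05, 15 arrays against 14), with a median difference of 0.34. Of all genes, 32.1% passed, 19.7% higher and 12.5% lower, with a median of 0.02. Among the non-lipid genes 58 of 59 passed (median 0.41), including all 4 of inhibitory transmission, all 9 channel and axonal genes and all 12 synaptic genes; among the lipid genes 13 of 23 passed (median 0.16). The genes that did not pass were Aacs, Lss, Stard4, Scd, Msmo1, Pnpla3, Mvk, Insig1, Acat2, Sqle and Fam131b.

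Slc32a1 had the largest rostral difference. It ran from 7.56 through a median of 7.92 to 8.47 in 14 tube alone arrays and from 8.00 through 8.80 to 9.08 in 15 NT-3 arrays. On day 60 the tube alone arrays measured 7.81, 7.83 and 7.76 and the NT-3 arrays 8.74, 8.87 and 9.08, without overlap, and on day 90 they measured 8.34, 8.47 and 8.42 against 8.76, 8.56 and 8.89. The fitted difference was 0.69 ± 0.10 (SE), or 1.61-fold, with a limma adjusted p of 7.97e-07. Its NT-3 arrays still stayed below the lowest normal array, 9.77.

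Pvalb differed by 0.65 ± 0.14 (SE, adjusted p = 3e-04) with overlapping ranges, 8.53 to 10.56 in the tube alone arm and 8.82 to 10.36 in the NT-3 arm. Trhr ran from 7.33 to 8.19 in the tube alone arm and from 7.87 to 8.77 in the NT-3 arm, a difference of 0.62 ± 0.07 (adjusted p = 2.95e-09). Shank1 ran from 8.77 to 10.07 and from 9.12 to 10.52, a difference of 0.61 ± 0.13 (adjusted p = 0.000279). All 4 ranges overlapped over the pooled days.

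The size varied by day. The median of the non-lipid genes was 0.21 on day 10, 0.23 on day 20, 0.53 on day 30, 0.76 on day 60 and 0.26 on day 90. On days 30 and 60, 59 of 59 were higher, against 6172 and 6304 of all 9717 genes. The median of the lipid genes went from -0.03 on day 10 to 0.41 on day 60. In all, 50 of 82 genes were higher in the NT-3 arm on each of the 5 days, against 14.9% of all genes. Without day 60, 52 genes passed.

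Markers of other cells moved with this comparison. Neuronal markers were higher in the NT-3 arm in 23 of 23 cases tested (median 0.41) and myelin genes in 16 of 26 (median 0.16), while fibroblast and matrix genes were lower in 15 of 15 (median -0.94) and skeletal muscle genes in 7 of 11 (median -0.89). The mean of the muscle list exceeded normal by over 0.5 log2 in 9 of 14 rostral tube alone arrays (range -0.49 to 4.23) but in 2 of 15 rostral NT-3 arrays. Leaving out the arrays above that limit also removed days 20 and 90 from the comparison; with 9 against 5 arrays of days 10, 30 and 60, 61 of 82 genes were higher. RT1-CE10, a class I histocompatibility gene, also differed between whole groups, with rostral means near 11 in some and near the normal 6.55 in others: 7.38, 7.62, 11.23, 7.23 and 10.90 in the NT-3 arm from day 10 to day 90, and 6.86, 6.96, 10.96, 10.42 and 7.64 in the tube alone arm. On days 10, 20 and 30, when the arms' means of that gene differed by less than 1, 39 genes passed. The part of fibroblast content and of the RT1-CE10 difference in this result was not tested.

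Caudally the same comparison gave 0 of 82 genes higher and 0 lower in limma, with 0% of all genes passing. At an unadjusted p under 0.05 there were 17 of the 82 and 1425 of all 11479 genes tested. The smallest limma adjusted p among the 82 was 0.178 and the median difference was -0.11. In a range from -0.25 to 0.07, 75 of 82 lay below 0, against 5681 of the 9717 genes with a normal level of at least 7. Slc32a1 ran from 8.01 through 8.65 to 9.07 in the tube alone arm and from 7.72 through 8.37 to 9.30 in the NT-3 arm, the NT-3 values spanning the others. On day 10 the median of the non-lipid genes was -0.49, with 0 of 59 higher in the NT-3 arm, against 3886 of those 9717 genes.

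The difference between segments was tested itself. The NT-3 minus tube alone difference was larger rostrally than caudally for 65 of the 82 genes and smaller for 0 (21% of all genes, 13.5% larger and 7.48% smaller), with a median of 0.47. The 65 comprised 58 of 59 non-lipid genes, all but Rab37, and 7 of 23 lipid genes. The differences were 0.86 ± 0.15 (SE) for Slc32a1, 0.79 ± 0.18 for Shank1, 0.76 ± 0.20 for Pvalb and 0.73 ± 0.11 for Trhr, with limma adjusted p of 1.77e-05, 0.00053, 0.00329 and 1.43e-06. On the days with matched RT1-CE10, 41 passed. Of the marker genes, 22 of 23 neuronal ones showed the same larger rostral difference and 13 of 15 fibroblast ones the opposite.

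**Figure D4:**
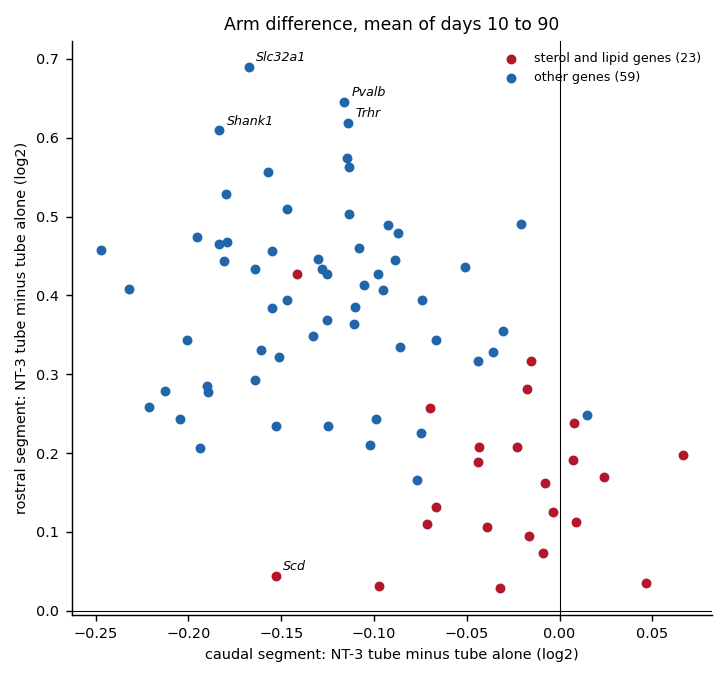
NT-3-chitosan tube minus tube alone over days 10 to 90, in log2, rostral (vertical axis) against caudal (horizontal axis), with 1 point per gene for the 23 lipid and the 59 other genes. All 82 points lie above 0 on the vertical axis and 75 lie below 0 on the horizontal axis, with Slc32a1 uppermost at 0.69.

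The tube alone arm was itself uneven along the cord. Rostral levels of days 10 to 90 were below caudal ones for 56 of 82 genes and above for 0 (30% of all genes, 12.7% above and 17.3% below), with a median of -0.36; these were 54 of 59 non-lipid and 2 of 23 lipid genes. Hecw1 ran from 7.61 to 8.53 rostrally and from 8.28 to 9.32 caudally, a difference of -0.72 ± 0.08 (SE), and Scn1a (-0.66), Slc32a1 (-0.62) and Atp2b3 (-0.62) followed. The muscle limit was exceeded in 9 of 14 rostral and 2 of 15 caudal tube alone arrays, with medians of 0.75 and -0.24 over the list; 15 of 15 fibroblast genes were higher rostrally (median 0.99) and 22 of 23 neuronal markers lower (median -0.40). The part of this tissue content in the difference was not tested beyond leaving out the arrays over the limit, which kept days 10, 30 and 60 and gave 52 genes. In the NT-3 arm 5 genes were higher rostrally and 0 lower (0.802% of all genes, 0.664% higher and 0.138% lower): Pvalb (0.52), Klhdc7a (0.42), Idi1 (0.32), Fdft1 (0.26) and Fa2h. It was 3 after a second quantile normalization and 2 when only the groups compared were fitted. That number ran from 3 to 12 when a single array was left out, with 12 without NT-3 caudal day 10 replicate 1, 8 without NT-3 caudal day 20 replicate 1, and 3 without any of these NT-3 arrays: rostral day 20 replicate 2, day 30 replicates 1 and 2, day 60 replicates 1 and 3 and day 90 replicates 1 and 3, or caudal day 10 replicate 3, day 20 replicate 2, day 30 replicates 2 and 3, day 60 replicate 1 and day 90 replicates 1 and 2.

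In the lesioned area the NT-3 arm was the lower one. Over days 10 to 90, 53 of the 82 genes were lower than in the lesion control and 3 higher (limma; 47.2% of all genes, 25.6% higher and 21.6% lower), with a median of -0.34. Pvalb ran from 6.23 through 8.30 to 9.90 in the lesion control and from 5.68 through 6.00 to 7.51 in the NT-3 arm, a difference of -2.05 ± 0.26 (SE; adjusted p = 1.33e-07). Scn1a ran from 4.37 through 7.16 to 8.48 and from 4.15 through 4.98 to 6.85 (-1.87 ± 0.29). Hecw1 ran from 4.66 through 6.70 to 8.34 and from 4.18 through 4.42 to 6.14 (-1.76 ± 0.23). The ranges overlapped in each case, since some lesion control arrays were as low as those of the NT-3 arm. The NT-3 medians of all 3 genes lay under 6.55, the level used to filter dim genes, so the sizes of these differences are uncertain and no fold is given. The nuclear receptor gene Esrrg was lower by 1.38 ± 0.16 on average (difference -1.38). By role, 11 of 12 synaptic genes and all 6 adhesion and developmental genes were lower.

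The 3 genes that were higher in the NT-3 lesion segment were all lipid genes. Insig1 ran from 8.84 through 9.71 to 10.18 in the lesion control and from 9.07 through 10.10 to 10.42 in the NT-3 arm (0.36 ± 0.05, SE; adjusted p = 2.71e-07), Stard4 from 7.79 to 8.14 and from 7.97 to 8.68 (0.27 ± 0.05; adjusted p = 3.27e-05), and B4galnt1 differed by 0.27 ± 0.09 (adjusted p = 0.0116). Ranges overlapped for all 3. Of the other lipid genes 8 of 23 were lower, 4 of them sterol synthesis enzymes. Muscle and neuronal content differed in this comparison too: 12 of 12 muscle genes were lower in the NT-3 arm (median -2.52), as were 21 of 23 neuronal (median -1.26) and 20 of 26 myelin genes (median -0.60), while 14 of 17 phagocyte genes were higher. With days 10, 30 and 60 only, when RT1-CE10 was matched, 19 of the 82 passed. What part these differences had in the result was not tested.

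In the first 3 days the rostral segment already differed between arms. Over days 1 and 3, 53 of 82 genes were lower in the NT-3 arm than in the lesion control and 1 was higher (limma, 6 arrays against 6; 34.5% of all genes, 19.7% higher and 14.8% lower), with a median of -0.36. Shisa9, whose product accompanies AMPA receptors, measured 8.26, 8.28 and 7.98 on day 1 and 7.74, 7.81 and 7.73 on day 3 in the lesion control, against 7.23, 7.23 and 6.68, then 7.20, 7.35 and 7.22 in the NT-3 arm. All 6 NT-3 values lay below all 6 control values, and the difference was -0.82 ± 0.08 (SE, adjusted p = 1.67e-09). Klhdc7a measured 7.89, 8.53 and 8.04, then 7.92, 8.10 and 7.86 in the control, and 7.07, 6.81 and 6.44, then 7.39, 7.87 and 7.64 in the NT-3 arm, where 1 day 3 array overlapped (-0.85 ± 0.14, adjusted p = 2.04e-05).

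Lin7b (-0.83 ± 0.14, SE) and Cdh7 (-0.77 ± 0.14) were the next lowest. The single rise was that of lanosterol synthase, Lss: 9.45, 9.35 and 9.41 on day 1 in the control against 9.87, 9.90 and 10.01 in the NT-3 arm, with overlap on day 3 (0.24 ± 0.08, adjusted p = 0.0125). In the same comparison 20 of 23 neuronal markers were lower and 8 of 17 phagocyte genes higher. RT1-CE10 averaged 10.79 and 8.14 on the NT-3 days and 6.71 and 7.02 on the control days, so no day was matched for it and its part was not tested.

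The tube alone arm also stood below the lesion control rostrally on days 1 and 3, for 31 of 82 genes with 0 higher (16.4% of all genes, 6.41% higher and 9.97% lower). All 31 were non-lipid genes, led by Klhdc7a (-0.83), Shisa9 (-0.63), Olfm3 (-0.58) and Gabrb2 (-0.54). The lipid genes went opposite ways on the 2 days averaged. On day 1, 17 of 23 were higher in the tube alone arm (median 0.14), and on day 3, 1 of 23 (median -0.31). Of all 9717 genes, 4460 and 3477 were higher. RT1-CE10 averaged 10.82 and 7.46 on the tube alone days, so day 3 alone was matched with the control, and on that day 14 genes passed. Of the 6 tube alone arrays 2 exceeded the muscle limit, and 21 genes passed without them. The tube arms share the control arrays in these comparisons, and the difference between them at these days was not tested. Caudally the NT-3 arm was lower for 4 genes, Klhdc7a (-0.66), Slc5a11 (-0.59), Scd (-0.43) and Jph3 (-0.37), and higher for 0 (7.2% of all genes, 4.16% higher and 3.05% lower); without NT-3 caudal day 1 replicate 2, 7 genes passed. That comparison averaged 2 days on which the non-lipid genes went opposite ways. On day 1, 9 of 59 were higher in the NT-3 arm (median -0.25), and on day 3, 48 of 59 (median 0.24). Of all 9717 genes, 5081 and 5600 were higher. RT1-CE10 averaged 10.58 and 8.82 on these NT-3 days and 6.71 and 7.09 on the control days. No day was therefore matched for it and its part was not tested. The tube alone arm was lower caudally for Jph3 only (-0.37, limma adjusted p = 0.0266). Of all genes 8.81% passed, 4.5% higher and 4.3% lower. On day 3, the day matched for RT1-CE10, 5 genes passed. Here too the averaged days differed: 16 and 3 of 23 lipid genes and 11 and 34 of 59 others were higher on days 1 and 3. Of all 9717 genes, 4532 and 4240 were. The Jph3 call was lost without tube alone caudal day 1 replicate 3 or day 3 replicate 3, or without lesion control caudal day 1 replicate 1 or 2 or day 3 replicate 3; the number was 4 without tube alone caudal day 1 replicate 2 or day 3 replicate 1 and 5 without lesion control caudal day 1 replicate 3.

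**Figure D5:**
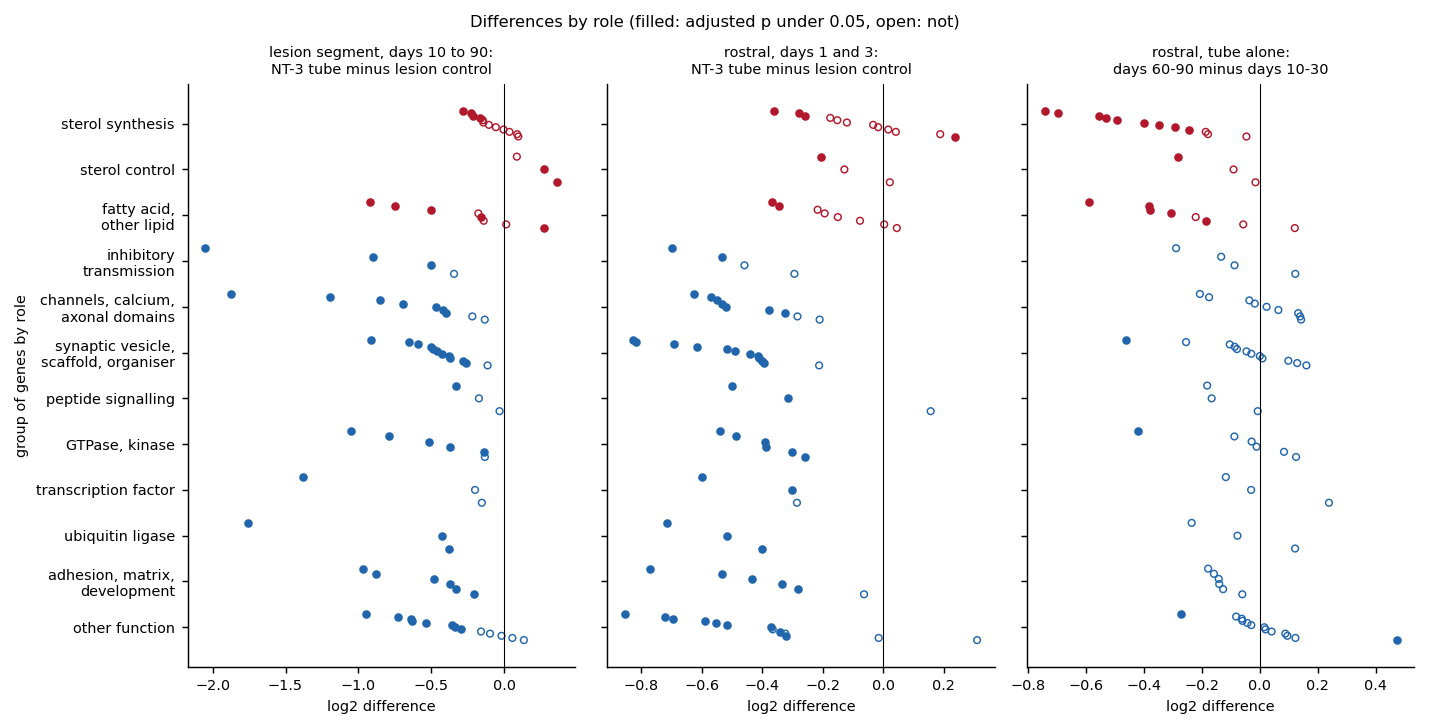
Differences in log2 for each of the 82 genes, grouped by role, in 3 comparisons: NT-3-chitosan tube minus lesion control in the lesion segment over days 10 to 90, the same arms in the rostral segment over days 1 and 3, and days 60 and 90 minus days 10 to 30 in the rostral tube alone segment. Filled points have a limma adjusted p under 0.05; in the lesion comparison filled points above 0 are limited to Insig1, Stard4 and B4galnt1.

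The tube arms allow a test of late against earlier days that the rule did not use. Between days 10 to 30 and days 60 and 90, lipid genes fell further, by limma in 15 of 23 cases in the rostral tube alone segment, 12 caudally, 8 in the rostral NT-3 segment and 6 caudally. Over all 82 genes, 18 fell and 1 rose in the rostral tube alone segment (17.3% of all genes, 6.29% up and 11% down), and 13 fell and 0 rose caudally (10.2%, 3.29% up and 6.86% down). The falls were largest for Cyp51 (-0.74), Idi1 (-0.70), Scd (-0.59) and the squalene epoxidase gene Sqle (-0.56) rostrally, and for Idi1 (-0.71), Scd (-0.71), Sqle (-0.54) and Cyp51 (-0.48) caudally. Idi1 in rostral tube alone arrays of day 60 measured 9.04, 9.59 and 9.46, all below the lowest rostral lesion control array of days 10 to 90, 9.71. RT1-CE10 was uneven over these days, with high rostral means on day 30 in both arms. It was also high on day 60 in the tube alone arm (10.42) and on day 90 in the NT-3 arm (10.90). Rostral tube alone arrays over the muscle limit stood among the earlier and the late days. The late comparisons were not rerun for either, and their part was not tested.

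In the NT-3 arm 10 genes rose and 8 fell rostrally (14.8% of all genes, 6.89% up and 7.89% down), and 6 rose and 6 fell caudally (20.8%, 8.79% up and 12% down). The caudal changes were 14.6% of the 82 genes, a smaller share than over all genes. When only the groups compared were fitted, 4 genes passed caudally in place of 12. All 8 rostral falls were lipid genes, with Idi1 (-0.43), Tm7sf2 (-0.39), Scd (-0.33) and Sqle (-0.31) first, and so were the 6 caudal ones, with Idi1 (-0.57), Fdft1 (-0.35), Tm7sf2 (-0.29) and Scd (-0.26). The rises were led rostrally by Klhdc7a (0.62), Rapgef4 (0.43), Pou6f1 (0.41) and Fam163b (0.40), and caudally by Rapgef4 (0.69), Klhdc7a (0.38), the transcription factor gene Cux2 (0.34) and Dab1 (0.34), an adaptor of reelin signalling. The lipid gene Pank1 also rose, by 0.21 rostrally and 0.30 caudally. Cux2 averaged 6.31 on the late and 5.97 on the earlier caudal days, both under 6.55, so the size of its rise is uncertain. Without NT-3 rostral day 60 replicate 3 the rostral number was 11. Whether the arms differed in these late changes was not tested.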

How the data were processed

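RNA of normal cord, injured cord and a universal reference was measured on Affymetrix Rat Genome 230 2.0 arrays. The deposited values are log2 signals made by the authors with RMA in Affymetrix Expression Console, per the submitters' processing notes; their versions are not stated in these sources. RMA takes each probe set relative to all arrays, which compresses differences near background. Of 31099 probe sets, 20832 had a single symbol in the platform annotation and were used; 436 with several symbols and 9831 without a symbol here were left out.

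Groups came from the labels. limma 3.58.1 (lmFit, contrasts averaging days, eBayes) in R 4.3.3 was fitted per segment with normal cord, or over both segments for the difference between them. Genes with at least 1 group mean at or above 6.55, the 40th percentile, were tested, and all 82 passed. P-values were adjusted by Benjamini-Hochberg over all genes of a comparison, with a threshold of 0.05. Tables were made with Python 3.11.15 and pandas 2.3.3. The script was tested on simulated data.

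Members and lists were chosen with earlier results of these data known. Genes named singly were the 12 with the lowest mean, the 4 lowest of each list, the 4 largest rises and falls of each comparison, and the 3 on each side of the limit; any other was named after its values were seen. Alternatives changed the normalization, probe set choice, filter, prior, groups fitted, replicate block, rule limits, matched RT1-CE10 days and arrays left out singly; leaving out arrays with muscle transcripts, or day 60, was chosen after seeing the data.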

Additional observations from a re-analysis of the deposited data

Results flagged for a closer look

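The difference between the NT-3-chitosan tube and the tube alone arm over days 10 to 90 was itself different in the rostral and the caudal segment for 65 of the 82 genes, all larger rostrally, as tested by limma's interaction of arm and segment over both segments. Among these genes the interaction was 0.86 log2 for Slc32a1, 0.79 for Shank1, 0.76 for Pvalb and 0.73 for Trhr. Fewer genes passed on days with matched RT1-CE10 and without day 60, as given below. The muscle limit was exceeded in 9 of 14 rostral tube alone arrays and in 2 of 15 rostral NT-3 arrays of these days. Its part was not tested beyond leaving out the arrays over the limit.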

How the results depend on the processing

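No call changed direction under the alternatives run: of 1901 alternative values of named genes, 1815 kept their side of the threshold, 86 lost it and 0 turned. The number of genes in the set was 181 at 0.7, 43 at 0.9, 87 and 74 with a normal level of at least 6 and 8, 62 with the mean of all probe sets (59 shared) and 78 after a second quantile normalization (70 shared). Genes passing rostral minus caudal in the NT-3 arm were 3 after that normalization and 2 when only the groups compared were fitted, which gave 4 for the NT-3 caudal late days. On days with matched RT1-CE10 the numbers were 39 (NT-3 against tube alone, rostral), 41 (its interaction with segment), 19 (lesion segment), 14 and 5 (tube alone against lesion control, days 1 and 3, rostral and caudal); no such days existed for NT-3 against lesion control on days 1 and 3. The cause was not tested, though fewer arrays enter.

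With arrays left out singly, the set held 69 to 142 genes. Numbers passing ranged from 67 to 71 (NT-3 against tube alone, rostral), 0 to 0 (caudal), 62 to 68 (interaction), 52 to 57 (lesion segment), 42 to 61 and 3 to 7 (NT-3 against lesion control, days 1 and 3, rostral and caudal), 23 to 37 and 0 to 5 (tube alone likewise), 3 to 12 and 53 to 57 (rostral minus caudal, NT-3 and tube alone), 11 to 26 and 8 to 14 (late days, NT-3, rostral and caudal), 17 to 19 and 9 to 14 (tube alone), and 50 to 62 and 66 to 72 (day 3 minus day 1).

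Same-numbered arrays did not deviate together: the mean correlation was 0.09 between segments, with every pair over 0.1 in 5 of 21 group pairs, and 0.03 between arms. With a replicate block, 72 (rostral), 0 (caudal), 67 (interaction) and 56 (lesion segment) genes passed, and no number moved by over 1.5 times. Leaving out arrays with muscle transcripts gave 52 and 21 (NT-3 and tube alone against lesion control, days 1 and 3). For the later days it also removed days 20 and 90 and gave 61 (9 against 5 arrays), 58 (interaction, 18 against 14) and 52 (rostral minus caudal, tube alone, 5 against 9); leaving out day 60 gave 52, 51 (interaction) and 53.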

Other observations

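In the universal reference RNA (5 technical replicates) most non-lipid genes were far below normal cord and most lipid genes were not. The 59 non-lipid genes had a median difference from normal cord of -3.65 log2, with 57 of 59 at least 1 below and 0 above. Many of these were dim there, such as Kcnc1 at 4.35 to 5.08 and Hecw1 at 3.75 to 4.56, so the sizes of single differences are uncertain. The 23 lipid genes had a median of -0.51, 3 were at least 1 below, among them Fa2h (-4.03), and Stard4 (0.82), Fdps (0.38), Mvd (0.27) and Idi1 (0.02) were above normal cord. Over all 9717 genes the median was -0.01 and 2179 were at least 1 below. Scd measured 9.64 to 9.75 in the reference arrays, above every rostral and caudal lesion control array of days 10 to 90.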
